A study of Mus musculus with 4 samples.

Results

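CTCF regions were described around 10 genes that move calcium in cardiac myocytes: Cacna1c, Slc8a1, Ryr2, Casq2, Trdn, Jph2, Hrc, Atp2a2, Pln and Camk2d. They are 10 of the 21887 protein-coding genes in the RefSeq table used for positions. A region belonged to a gene when its summit, the base with the most reads, lay within 50 kb of the gene span (mm10 coordinates). This gave 19 of the 16128 regions in the list from hearts labelled CTCF knockout and 27 of the 20043 regions in the control list.

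Binding of CTCF, the zinc-finger protein of insulators and loop borders, was mapped by ChIP-seq, the sequencing of DNA pulled down with an antibody to the protein. The cells were left-ventricular myocytes of C57BL/6 mice. One group carried the genotype label CTCF_knockout and the other the label control, with 1 ChIP library per genotype and myocytes of 3 hearts pooled in each. No source used here gives the age of the mice, the Ctcf allele or the driver of its deletion, and the inputs were not used here. With 1 library per genotype there is no replicate and no test between genotypes, and every interval below covers counting error only. The lists hold binding regions and no expression, so neither the loss of CTCF nor the myocyte identity of the cells could be checked from marker genes. The library is therefore called by its label.

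In each heartbeat, calcium enters the myocyte through the L-type channel, whose pore is the product of Cacna1c, and opens the ryanodine receptor, the product of Ryr2, in the sarcoplasmic reticulum. Casq2 encodes the calcium buffer of that store, Trdn and Jph2 encode proteins of the junction between the store and the surface membrane, and Hrc encodes a histidine-rich calcium-binding protein of the store. Calcium is pumped back by the product of Atp2a2, which phospholamban, the product of Pln, holds back, and is exported by the sodium-calcium exchanger, the product of Slc8a1. Camk2d encodes a calmodulin-dependent kinase that phosphorylates several of these proteins.

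Each region in the deposited lists carries the authors' fold enrichment over a local background, with a −log10 p and q. No source used here says whether that background came from the ChIP library or from its input. The number of reads at the summit (the pileup) and the local background were recovered from the fold and the p, and a whole number of reads returned the p of each region (100% of either list, to 0.001 on the −log10 scale). The lowest local background, which stands in for depth, was 0.851 reads in the list labelled knockout and 1.01 reads in the control list, a ratio of 0.846. Pileups ranged from 6 to 274 reads in the list labelled knockout and from 6 to 272 in the control list.

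The sequence shown first is that of the single region that fell on a promoter of these genes. RefSeq promoter windows (GRCm38.p6, 250 bases before to 50 after a transcription start) were at hand for 8 of the 10 genes, in 11 windows, and the start of Camk2d at position 126596951 of chromosome 3 was the only one of them to hold a control summit. No window held a summit of the library labelled knockout. The stretch below runs from the edge of the control region to the base before that start (chr3:126596789-126596950, plus strand). Capitals mark its closest match to the core of the known CTCF motif, taken as CCA, any 2 bases, AG, any 2 bases and GGC, and searched on both strands.
Camk2d: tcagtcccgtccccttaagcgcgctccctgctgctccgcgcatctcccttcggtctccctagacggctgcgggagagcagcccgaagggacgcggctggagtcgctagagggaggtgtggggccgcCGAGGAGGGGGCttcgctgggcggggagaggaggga
The stretch is 162 bases long with 71.0% G and C and 16 CpG pairs, and the control summit is its base 88, 75 bp before the start. The marked match, 45 bp from the summit, differs from the motif at 1 of its 8 fixed letters. An exact match stood in none of the 11 windows, and in 2.43% of all 32851 windows. It stood in 15.8% of the 1251 windows that held a control summit, in 1.90% of those that held none, and in 20.2% of the 909 with a summit of the library labelled knockout.

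A match with at most 1 mismatch was present in 3 of the 11 windows, and in 30.6% of all windows. The other two belonged to Ryr2 (chr13:12106967-12107006, minus strand) and Hrc (chr7:45335197-45335236, plus strand), and neither window held a summit in either list. The 3 matches are shown with 14 bases on either side, 5′ to 3′ in the direction of the gene, with the match in capitals.
Camk2d: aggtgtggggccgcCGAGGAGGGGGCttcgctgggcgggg
Ryr2: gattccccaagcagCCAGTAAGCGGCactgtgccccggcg
Hrc: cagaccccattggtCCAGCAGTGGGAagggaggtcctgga
The match ended 24, 35 and 46 bases before the start of Camk2d, Ryr2 and Hrc. A match with at most 1 mismatch was present in 65.1% of windows with a control summit, such as that of Camk2d, and in 29.3% of those without. Windows with a control summit also had a higher median G and C content, 61.7% against 52.3% in the others. A match of this quality is common, and its absence or presence in these windows is a description of the letters only.

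Taken over all 10 genes, 16 of the 19 regions labelled knockout overlapped a control region by at least 1 bp (84.2%, Wilson 95% interval 62.4 to 94.5), where 85.8% of that whole list and 86.3% of its regions within 50 kb of any protein-coding gene did. In the other direction 17 of the 27 control regions met a region labelled knockout (63.0%, interval 44.2 to 78.5), where 69.0% of the whole control list and 69.3% of the control regions within 50 kb of any protein-coding gene did. The interval of each share covered its background. With only regions of a fold of at least 5 in each list, the control share was 54.2% (interval 35.1 to 72.1) near these genes and 71.3% over the whole list. At this limit the control regions of fold 7.98 at Ryr2 and 9.32 at Hrc had no counterpart. Their regions labelled knockout were called, but with folds of 4.49 and 3.87. Without the limit, regions of the same control pileups as the 27 had a shared percentage of 66.7% over the whole list. Regions of like control fold had 71.1%. Overlapping regions are called shared from here on. The number of regions labelled knockout was 0.704 of the control number near these genes and 0.805 over the whole lists.

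**Figure D1:**
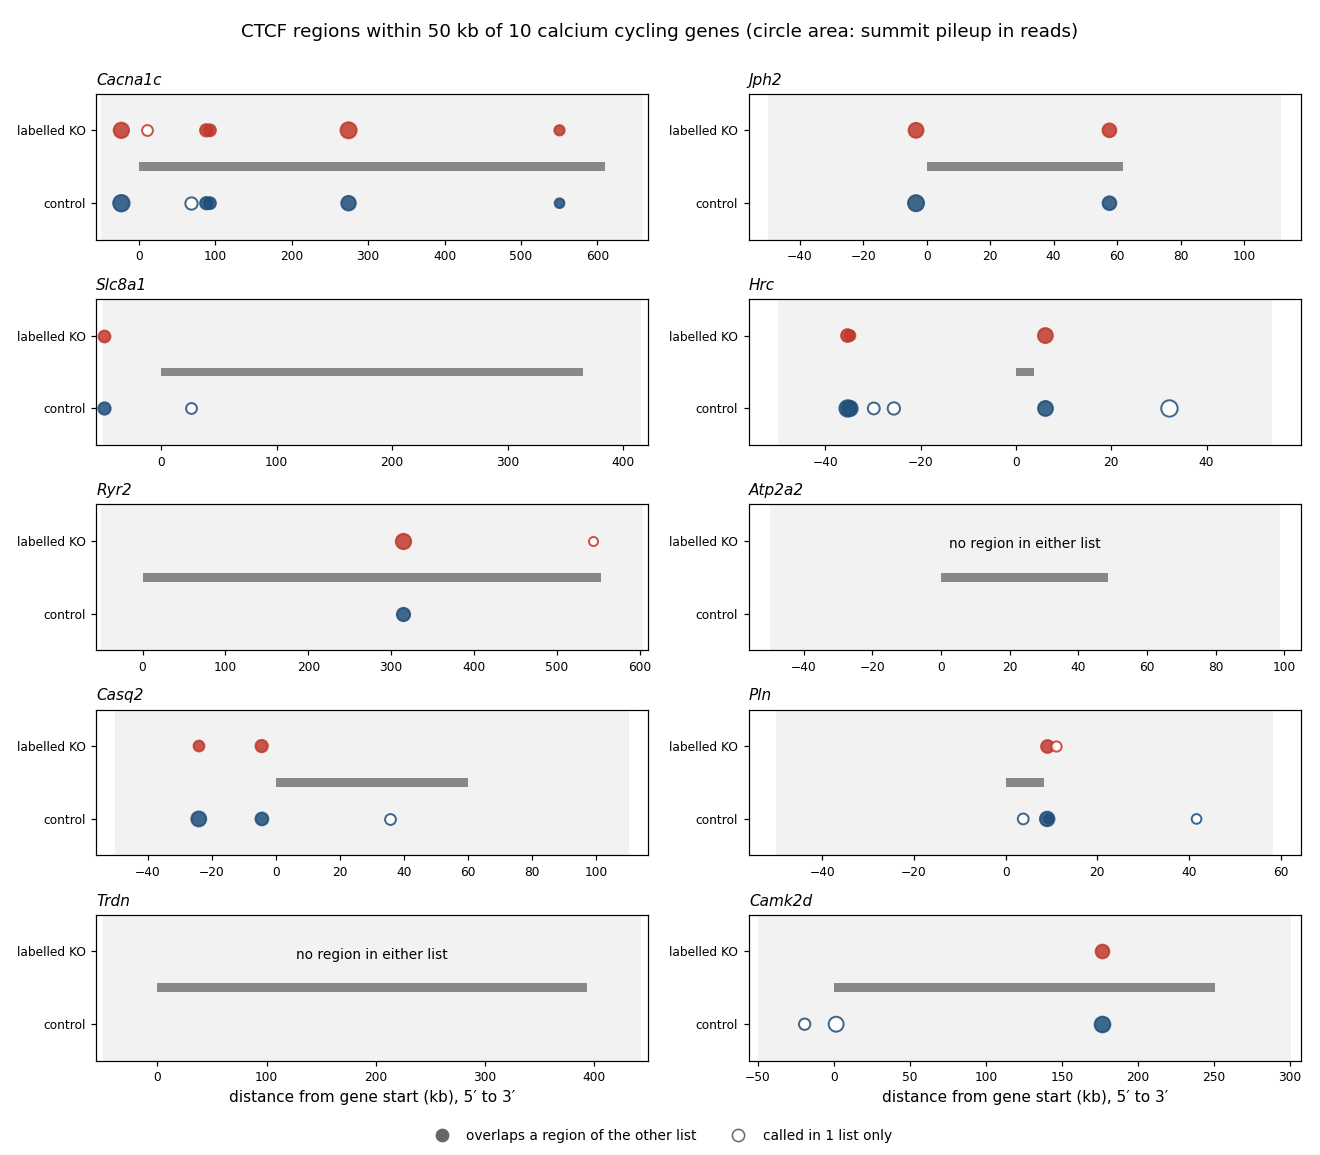
Position of each CTCF region around the 10 genes, with the library labelled CTCF knockout above the gene (grey bar) and the control below it. The x axis is the distance in kb from the gene start in the direction of transcription (from the lower-coordinate end for Atp2a2 and Trdn), the shaded area is the window of 50 kb on either side, circle area is the recovered pileup in reads, and open circles were called in 1 list only. Cacna1c has 6 regions in each list, Hrc 3 in the library labelled knockout and 6 in the control, and Atp2a2 and Trdn have none.

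Cacna1c (gene ID 12288, chromosome 6, 118587240 to 119197384) had the most regions in the library labelled knockout, 6, and 6 in the control, of which 5 were shared in each list. The strongest within the gene lay 45.0% of the way from its start (118922910 to 118923137 in the library labelled knockout, 118922857 to 118923185 in the control). It had 22 reads and a fold enrichment of 11.1 in the library labelled knockout, against 18 reads and 9.47 in the control. The summits were 8 bp apart, and the counting intervals, 13.8 to 33.3 and 10.7 to 28.5 reads, overlapped. The region 23.1 kb before the gene, inside the neighbouring decapping gene Dcp1b, had 20 reads (fold 10.2) in the library labelled knockout and 23 reads (fold 10.4) in the control. These regions stood above 87.3% and 81.6% of the list labelled knockout and above 74.7% and 81.1% of the control list.

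A close pair of regions lay 14.4% and 15.2% of the way into Cacna1c, on either side of a further transcription start of the gene at position 119108495. The one before that start had 13 reads in each library, with folds of 6.83 in the library labelled knockout and 6.04 in the control. The one after it had 12 reads in each, with folds of 6.97 in the library labelled knockout and 6.37 in the control. Near the far end, 90.2% of the way through the gene, a weak shared region had 9 reads in the library labelled knockout and 8 in the control. The list labelled knockout alone held a region at 119186811 to 119186947, where the spans of Cacna1c and Dcp1b overlap, with 10 reads (fold 5.94). The control list alone held one at 119129726 to 119129897 with 13 reads (fold 6.98).

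Slc8a1 (gene ID 20541, chromosome 17, 81373105 to 81738387), the exchanger gene, is 365 kb long and held no region labelled knockout within its span. The control held 1 there, 7.11% of the way from its start (81712316 to 81712457), with 10 reads and a fold of 5.48. The shared region was far upstream, at 49.2 kb and just inside the window (81787474 to 81787620 in the library labelled knockout), with 12 reads (fold 7.02) in the library labelled knockout and 13 reads (fold 6.04) in the control. The nearest protein-coding gene to it other than Slc8a1 was 722 kb away.

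The release channel gene Ryr2 (gene ID 20191, chromosome 13, 11553099 to 12106945) is 554 kb long. A single region was shared there, 56.8% of the way from its start (11792478 to 11792700 in the library labelled knockout, 11792479 to 11792697 in the control), and the summit was the same base in each list. It had 20 reads in the library labelled knockout and 15 in the control, yet a fold of 4.49 in the library labelled knockout and 7.98 in the control. The local background was 3.68 reads in the list labelled knockout, 4.32 times its lowest level, and 1.01 reads in the control list. Reads and fold thus stood in opposite order at this region. A weak region near the far end of Ryr2 (11563019 to 11563177) was called in the library labelled knockout only, with 7 reads and a fold of 4.32, above 4.92% of that list.

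Casq2 (gene ID 12373, chromosome 3, 102086415 to 102146514), the gene of the store's calcium buffer, had its shared regions upstream. The nearer, 4.39 kb before the gene in the library labelled knockout (102081952 to 102082161), had 13 reads (fold 7.56) there and 14 reads (fold 7.48) in the control. The farther, 23.9 kb before the gene in the library labelled knockout, had 10 reads (fold 5.79) there and 19 reads (fold 8.63) in the control. The counting intervals of the farther pair, 4.80 to 18.4 and 11.4 to 29.7 reads, overlapped. Within the gene the control alone had a region (102122145 to 102122384) with 10 reads and a fold of 5.36.

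Trdn (gene ID 76757, chromosome 10, 33083483 to 33476709), the triadin gene, spans 393 kb and had no region in either list, within it or within 50 kb. The nearest lay 267 kb away in the library labelled knockout (60 reads, fold 9.36) and 193 kb away in the control (14 reads, fold 7.30). The former also overlapped a control region, while the latter met no region labelled knockout. Jph2 (gene ID 59091, chromosome 2, 163336242 to 163398049), the junctophilin gene of the heart, had 2 regions in each list, all shared. The one 3.34 kb before the gene (163401195 to 163401510 in the library labelled knockout), which is also 4.43 kb from Oser1, had 19 reads (fold 9.75) in the library labelled knockout and 22 reads (fold 9.74) in the control. The one 93.2% of the way through the gene had 16 reads in each, with folds of 9.19 in the library labelled knockout and 8.28 in the control.

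Hrc (gene ID 15464, chromosome 7, 45335269 to 45338973) is 3.71 kb long and had 3 regions in the library labelled knockout and 6 in the control. The shared region nearest to it, 2.49 kb past its end and inside Ppfia3, had 19 reads in each library, with folds of 9.45 in the library labelled knockout and 7.03 in the control. A close pair of shared regions lay 35.3 and 34.8 kb before Hrc, inside the span of the long non-coding gene Gm39006 and 3.21 and 2.69 kb from the cation channel gene Trpm4. Their pileups were 14 and 10 reads in the library labelled knockout (folds 5.28 and 3.87), against 23 and 20 reads in the control (folds 10.8 and 9.32). The control values multiplied by the background ratio of 0.846 would be 19.5 and 16.9 reads, and the counting intervals overlapped at each region. The local background at the pair was 1.84 reads in the list labelled knockout, 2.16 times its lowest level.

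The other 3 control regions near Hrc had no counterpart in the library labelled knockout. Those inside Trpm4, at 45305384 to 45305553 and 45309462 to 45309763, had 12 and 13 reads (folds 6.48 and 6.98). Over the whole list 52.9% of control regions with 12 reads and 61.3% of those with 13 were shared. The third, 28.5 kb past Hrc and 0.407 kb from Lin7b (45367271 to 45367644), had 23 reads, a fold of 8.44 and a width of 374 bp. It was the strongest by pileup of the 10 control regions near the 10 genes that were not shared. Of the 529 control regions with 23 reads in the whole list, 507 were shared (95.8%).

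Atp2a2 (gene ID 11938, chromosome 5, 122453513 to 122502225), the calcium pump gene, had no region within 50 kb in either list. A strong shared region lay just outside the window, 52.0 kb from the lower-coordinate end of the gene (122401358 to 122401596 in the library labelled knockout, 122401334 to 122401589 in the control). It had 25 reads (fold 13.7) in the library labelled knockout and 26 reads (fold 12.4) in the control. By pileup and by fold this was stronger than any region counted for the 10 genes, so the limit of 50 kb decides whether the pump gene has one. Slc8a1 lies on the other side of the limit, with its shared region at 49.2 kb.

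Pln (gene ID 18821, chromosome 10, 53337686 to 53345999) lies inside the span of Cep85l, as do all of its regions. The shared region just past the end of Pln, 0.742 kb away in the library labelled knockout (53346648 to 53346937), had 14 reads (fold 6.48) there. It met 2 control regions, one of 18 reads (fold 9.47) with the summit 6 bp away, and one of 7 reads (fold 3.89) that it overlapped by 3 bp only. The list labelled knockout alone held a region 2.63 kb past the gene with 9 reads (fold 4.88). The control alone held one within Pln (53341453 to 53341604) with 10 reads (fold 5.48) and one 33.3 kb past it with 8 reads (fold 4.38).

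Camk2d (gene ID 108058, chromosome 3, 126595487 to 126846326) had 1 region in the library labelled knockout and 3 in the control. The shared one lay 70.3% of the way through the gene (126771681 to 126771874 in the library labelled knockout), with 16 reads (fold 9.19) in the library labelled knockout and 21 reads (fold 8.52) in the control. The promoter region shown above (126596789 to 126596987), 1.39 kb from the lower-coordinate end of the gene span, was called in the control only, with 19 reads (interval 11.4 to 29.7), a fold of 8.63 and a −log10 q of 12.9. It was stronger by fold than 68.3% of the control list. Over the whole list 777 of the 833 control regions with 19 reads were shared (93.3%), as were 71.1% of the 1140 control regions with a summit in any promoter window. The other control-only region lay 19.3 kb upstream (126576060 to 126576280), with 11 reads and a fold of 5.98.

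**Figure D2:**
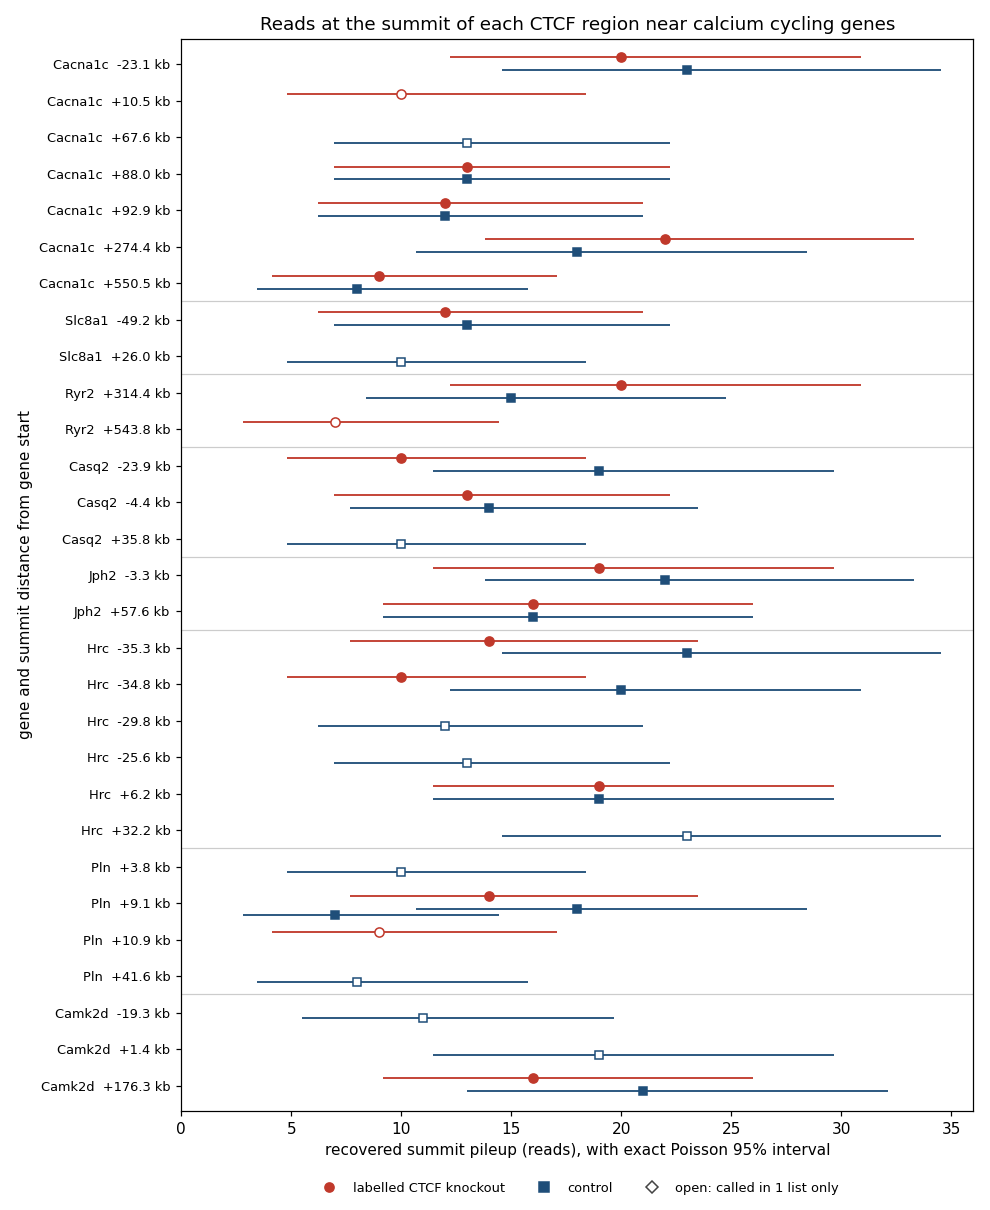
Recovered pileup (reads, x axis) at the summit of each region near the 10 genes, with the library labelled CTCF knockout as circles above the control as squares, and rows giving the gene and the distance of the summit from its start. Bars are exact Poisson 95% intervals and open symbols were called in 1 list only. The intervals overlap in all 17 shared pairs, and the open symbols lie at 10 reads or below in the library labelled knockout and between 8 and 23 reads in the control.

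In the 17 shared pairs the control had more reads in 9, fewer in 4 and the same number in the rest. With control reads multiplied by the background ratio of 0.846 it was higher in 5 and lower in 12, so no overall direction was read from the pairs. The exact Poisson intervals overlapped in all 17, but at this depth that does not show that binding was equal. Single pairs differed by as much as 10 reads in the library labelled knockout against 20 in the control, at Hrc. The pair of 14 against 7 reads at Pln met by 3 bp only, with summits 291 bp apart. The same region labelled knockout also met a control region of 18 reads with its summit 6 bp away. It therefore counts in 2 of the 17 pairs. Summits of the shared regions labelled knockout lay within 81 bp of the nearest control summit in every case, with a median of 15 bp. The 10 control regions without a counterpart had 8 to 23 reads (median 11.5), while the 17 with one had 7 to 23 (median 18). Regions with few reads were often not shared anywhere. Over the whole list 17.9% of control regions with 8 reads were shared, as were 34.7% with 10, 43.9% with 11 and 61.3% with 13. Of the 13 control regions with at least 15 reads near these genes, 11 were shared, where 90.6% of such regions in the whole control list were. The exceptions were the Camk2d promoter region and the region by Lin7b.

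By place, 9 of the 19 regions labelled knockout and 12 of the 27 control regions lay within a gene span. Of these, 7 were shared in each list. All 5 control regions outside a span but within 10 kb of it were shared, at Casq2, Jph2, Hrc and Pln, where they numbered 1, 1, 1 and 2, counting the overlap of 3 bp at Pln. Of the 10 control regions between 10 and 50 kb away, 5 were shared. These counts are small and no order was read from them; 69.0% of the whole control list was shared.

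The genes differ in length, so each was set beside the protein-coding genes of 0.5 to 2 times its own span. Cacna1c, with 6 regions in each list, had more than 88.0% of 516 such genes in the library labelled knockout and more than 80.6% in the control. Hrc had more than 66.8% of 4141 genes of like span in the library labelled knockout (3 regions) and more than 89.8% in the control (6 regions). Ryr2, nearly as long as Cacna1c, had 2 regions in the library labelled knockout, equal to the median of 592 genes of like span, and 1 in the control, where the median was 2. Trdn had none, as did 24.1% of the 910 genes of its length in the library labelled knockout and 18.6% in the control. Atp2a2 had none, as did 26.0% of 6315 genes in the library labelled knockout and 20.6% in the control. Over all protein-coding genes, 25.2% had no region within 50 kb in either list, against 2 of these 10.

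**Figure D3:**
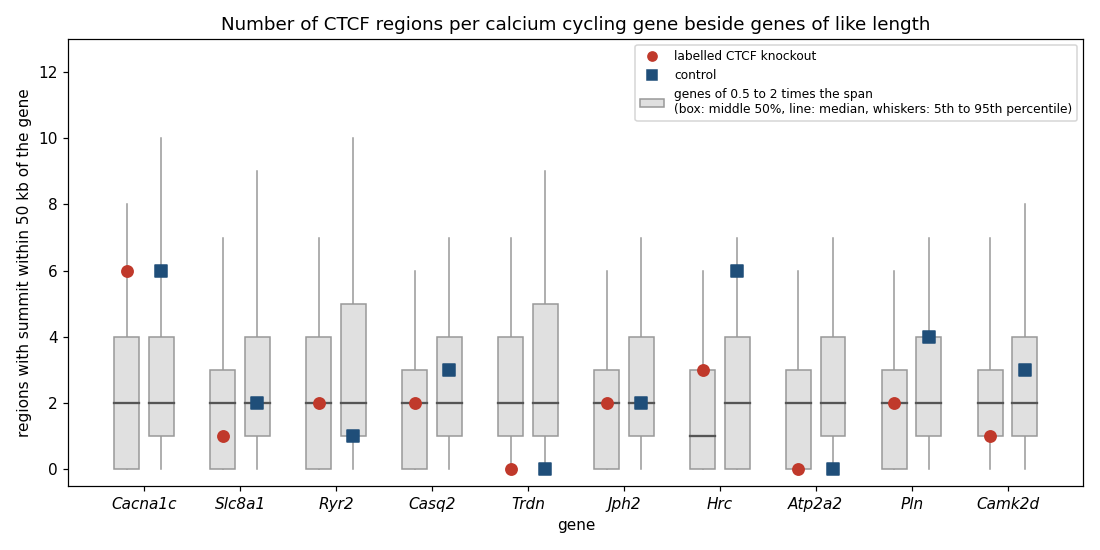
Number of regions with a summit within 50 kb of each gene (y axis), with the library labelled CTCF knockout (circles) left of the control (squares), over the distribution for protein-coding genes of 0.5 to 2 times the same span (box: middle 50%; line: median; whiskers: 5th to 95th percentile). Cacna1c, with 6 regions in each list, and Hrc, with 6 in the control, stand above the boxes, and Trdn and Atp2a2 stand at 0.

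The windows around the 10 genes cover 3.36 Mb and held 5.66 regions per Mb in the library labelled knockout and 8.05 in the control, against 8.73 and 10.9 in the windows of all protein-coding genes. The gene spans make up 2.36 Mb of these windows. Unlike the counts per gene above, these densities were not matched for gene length. Median fold enrichment was 6.83 in the library labelled knockout and 7.03 in the control near these genes, and 7.13 and 6.98 over the whole lists. The strongest region near them had a fold of 11.1 in the library labelled knockout and 10.8 in the control, where the lists reach 40.0 and 41.4.

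A further 42 genes of calcium handling, listed for their known function, were counted in the same way and all were matched. Their windows held 120 regions labelled knockout, of which 107 were shared (89.2%, interval 82.3 to 93.6, against 85.8% of the whole list), and 164 control regions, of which 108 were shared (65.9%, interval 58.3 to 72.7, against 69.0%). Each interval covered the value of its whole list. The control share of the 10 genes, 63.0%, lay within the interval of the control share. Per Mb there were 11.7 regions in the library labelled knockout and 16.0 in the control, above the values near the 10 genes. Gene length was not matched here either. No region lay near Fkbp1b, a ryanodine receptor partner, Calm2, a calmodulin gene, or Tmem38a, a cation channel gene of the store, in either list. These were 3 of the 42 genes, where 25.2% of all protein-coding genes had no region in either list.

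Of the 38 further genes with a control region, 9 had all of them shared (23.7%), where 41.2% of the 15961 protein-coding genes with one did. The median number of control regions per such gene was 4 here and 3 over all. The 9 included S100a1, a calcium sensor gene, with 4 of 4 (strongest control fold 16.5) and Fxyd1, the phospholemman gene, with 5 of 5 (strongest 14.7). At the other 29 genes at least 1 control region was not shared. At Itpr1, the other type of calcium release channel, 1 of 6 control regions was shared, and the strongest there, with 25 reads and a fold of 13.0, was not. Atp2b1, a calcium pump gene of the surface membrane, Mcu, the mitochondrial calcium uniporter gene, and Adrb1, a beta-adrenergic receptor gene, had 1 control region each, with folds of 4.38, 5.48 and 4.99, and none of these was shared. They had 8, 10 and 9 reads, and 17.9%, 34.7% and 24.8% of control regions with these pileups were shared over the whole list. In the other direction, 13 of the 120 regions labelled knockout met no control region. Among these, the strongest at Akap6, a kinase-anchoring protein gene, and at Slc8b1, the mitochondrial sodium-calcium exchanger gene, had folds of 11.3 and 10.2 in the list labelled knockout.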

How the data were processed

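CTCF ChIP-seq peak lists of 2 libraries, each from pooled myocytes of 3 hearts per the labels' protocols, were used as deposited. The mm10 build, MACS2 (version and threshold not stated), SAMtools 0.1.19 and Bowtie2 2.2.6 are named, per the submitters' processing notes. Per the file format, the deposited values are a fold enrichment (a ratio over local background), −log10 p, −log10 q and a score made from the −log10 q. The authors called peaks per library.

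Pileups were recovered by solving (pileup + 1) / (background + 1) for the fold and the upper Poisson tail for p, and the procedure was tested on simulated data. Gene spans came from RefSeq (GRCm38.p6). No genome sequence or exon annotation was used here. Shares have Wilson 95% intervals and pileups exact Poisson intervals. The 10 genes, the 42 further genes and the settings were chosen with earlier results of these data known. All regions near the 10 genes were described; the rule asked for those within 10 kb, those called in 1 list only and the strongest of each gene. Values of some of the further genes are not reported here. Other settings were stricter thresholds, overlap rules, windows and lists of equal length. Computations used scipy 1.17.1, pandas 2.3.3 and numpy 2.4.6 under Python 3.11.15, with plots from matplotlib 3.10.9.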

Additional observations from a re-analysis of the deposited data

How the results depend on the processing

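No paired analysis was possible because there was a single library of each kind. The control regions near the 10 genes numbered 17 with a window of 10 kb and 42 with one of 100 kb, against 27, and the regions labelled knockout numbered 31 with the window of 100 kb, against 19. With 100 kb, Atp2a2 had 3 regions labelled knockout and 4 control regions, and Trdn still had 0 in each list. The share of control regions that were shared ran from 54.2% with a fold enrichment of at least 5 to 70.6% with the window of 10 kb over the planned settings, against 63.0%, while the whole list gave 71.3% and 69.0% at these settings. With lists of equal length it was 65.2%, against 78.5% of the whole list. It was 84.6% among control regions with at least 15 reads, a limit chosen after the data were examined, against 90.6% of the whole list. The number labelled knockout divided by the control number ran from 0.625 with the fold threshold to 0.826 with lists of equal length, against 0.704; the whole-list ratios were 0.858 and, by construction, 1. The share of regions labelled knockout that were shared ran from 78.6% with the window of 10 kb to 93.3% with the −log10 q limit of 5, against 84.2%, where the whole list gave 85.8% and 83.8%. A reciprocal overlap of at least 50%, or summits within 100 bp, changed the call of 1 of the 27 control regions, the one of 7 reads by Pln with an overlap of 3 bp. Pileups of 7 to 23 reads near these genes limit what a single region can show.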
